A study of Mus musculus with 6 samples.

Results

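The genes described here are those of the cytosolic ribosomal proteins, which with ribosomal RNA form the machine that translates messenger RNA. Members were the rows of the count table that GENCODE M21 calls protein coding and whose symbol is Rpl or Rps followed by a number and at most a short suffix, with Rpsa, Rplp0, Rplp1 and Rplp2 added. The kinases of the Rps6k family and the pseudogenes were left out. The rule used names only, although it was set with earlier results of these data known, and gave 84 genes of 45706 rows. Of these, 77 are the canonical genes, 46 of the large subunit and 31 of the small subunit, and 7 are paralogs with a parent among the canonical genes (Rpl3l, Rpl7l1, Rpl10l, Rpl22l1, Rpl36al, Rpl39l and Rps27l). Fau and Rack1 also belong to the ribosome but fall outside the naming rule, and are given beside the members as other genes.

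The study sequenced total RNA from 6 mouse bone marrow samples. The labels put 2 in control medium (controls 1 and 2) and 4 in medium conditioned by a VpR line of ccRCC, clear cell renal cell carcinoma, in a mouse model that resists a pair of checkpoint antibodies. The conditioned samples used the lines VpR83, VpR99, VpR126 and VpR2020, with 1 library each, so no difference between lines has a replicate. The count table's headers add the tags Ctrl to VpR83, T1 to VpR99 and LT2 to VpR126, which the sources used here leave unexplained, so what sets the lines apart is not known here. The labels give no strain, age, culture time or number of animals, and nothing says that the libraries came from separate animals. A p-value here therefore reflects how far these libraries scatter, which may be technical. The submitters' design text names marrow fresh from the animal as the comparator, while the labels name control medium. Culture and the tumour line's medium can therefore not be told apart in this contrast.

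A ribosome holds 1 copy of nearly every one of these proteins, and cells keep their supply close to balance by transcribing the genes at similar rates and degrading proteins that find no partner. Mammalian ribosomal protein messengers begin with a C followed by a run of pyrimidines, the TOP sequence, through which mTORC1 and LARP1 control their translation and stability. In marrow, erythroid and other fast-dividing precursors are known for a heavy demand on ribosome synthesis, and shortage of single ribosomal proteins is known to harm red cell formation.

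The stretch around the transcription start is shown for the 3 canonical genes with the lowest fold changes among those called, for the paralog Rps27l, and for Rpl10, picked after its values were seen because its fold change was nearest 0. Each sequence runs from 60 bases before the RefSeq start to its 20th base, and capitals mark a run of 8 or more pyrimidines that opens with C and lies within 20 bases of the start. Rps27, chr3:90213629-90213708, minus strand, has such a run of 9 bases across the start.
Rps27: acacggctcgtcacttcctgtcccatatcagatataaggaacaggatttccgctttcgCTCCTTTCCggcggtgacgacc
Rps12, chr10:23787190-23787269, minus strand, has a run of 11 bases just inside the RefSeq transcript, whose start lies 66 bases downstream of GENCODE's.
Rps12: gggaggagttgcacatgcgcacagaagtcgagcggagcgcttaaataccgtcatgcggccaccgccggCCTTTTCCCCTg
Rps21, chr2:180257319-180257398, plus strand, has none of that length.
Rps21: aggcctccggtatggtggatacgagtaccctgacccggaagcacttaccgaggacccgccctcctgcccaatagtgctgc
Rps27l, chr9:66946026-66946105, plus strand, has a run of 9 bases just before the start.
Rps27l: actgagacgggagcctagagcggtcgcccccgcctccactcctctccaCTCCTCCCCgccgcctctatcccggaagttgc
Rpl10, chrX:74270756-74270835, plus strand, has none of that length.
Rpl10: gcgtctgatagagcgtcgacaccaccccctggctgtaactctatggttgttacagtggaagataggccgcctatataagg

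RefSeq promoter windows of GRCm38.p6, each from 250 bases before to 50 after a start, were matched by symbol for 64 of the 84 members and gave 76 windows. A pyrimidine run of the kind capitalised above, read on the gene's strand, was present in 31 of the 76 windows (40.8%) and in 12.6% of all 32851 windows. The ETS-type word CCGGAAG, searched on both strands, was in 35.5% of the members' windows and in 8.86% of all. Read on the other strand it is CTTCCGG, whose pyrimidines can lie inside such a run. The YY1-type word AAGATGGC, on both strands, was in 10.5% against 2.75%, and the TATA-type word TATAAA in 9.21% against 13.6%. These are matches of letters and no test was made of them. Of the windows of members called lower, 26 of 53 held the pyrimidine run.

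The libraries held 18629708 to 129120559 counts, with VpR99 the deepest, and a canonical gene other than Rpl24 had 1624 to 171440 counts in a library. Counts in mitochondrially encoded genes made up 0.825% to 1.55% of the control libraries and 1.37% to 2.31% of the conditioned ones. A fit of 15141 genes with edgeR called 3410 genes higher and 2983 lower in conditioned medium at an adjusted p below 0.05.

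Ribosomal protein genes were read less in every conditioned library than in either control. Their share of all counts was 6.83% and 6.57% in controls 1 and 2, and 3.54%, 3.68%, 2.82% and 4.04% with VpR83, VpR99, VpR126 and VpR2020 medium. The groups did not overlap. The mean share was 6.70% ± 0.181 (SD, n = 2) in control and 3.52% ± 0.513 (SD, n = 4) in conditioned medium, so that 52.5% of the control share was left. The exact two-sided permutation test over the 6 libraries gave p = 0.13333, the smallest that its 15 arrangements allow. With each library's total scaled by edgeR's TMM factors, which lower the weight of a few very abundant genes, the shares were 6.002% and 3.72%, or 62.0% left. Counting error is small beside these differences. The widest 95% Wilson interval of a library's share, that of control 2, ran from 6.56% to 6.59% and covers counting error only. In bulk RNA, fewer cells of a type that reads these genes heavily and less of their RNA per cell cannot be told apart.

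**Figure D1:**
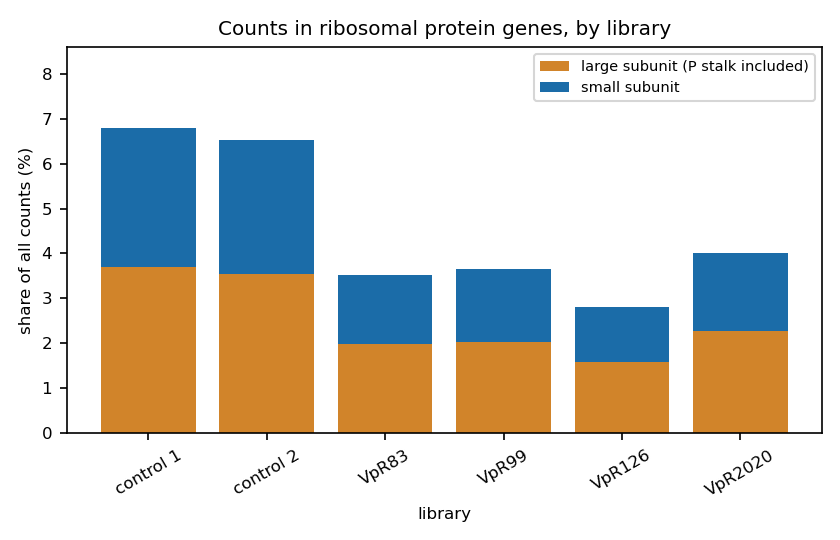
Share of all counts (%, vertical axis) that fell on canonical ribosomal protein genes in each of the 6 libraries, stacked by subunit, with the 2 controls at the left. All members, paralogs included, reached 6.83% and 6.57% in the controls and 2.82% to 4.04% in the conditioned libraries.

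Gene by gene, 83 of the 84 members had enough counts to be tested. In conditioned medium 61 of them (73.5%) were lower and none was higher by the quasi-likelihood test of edgeR, adjusted after Benjamini and Hochberg, where 19.7% of all genes tested were lower, 22.5% were higher and 42.2% were called in either direction. A further 19 members had a negative fold change without passing, and 3 a positive one. The median log2 fold change was −0.69 over the members and −0.01 over all genes. In 77 of the 83 members all 4 conditioned libraries lay below both controls, which 33.3% of all genes did. Among 3011 other genes of a like average level, 380 were lower (12.6%), 1175 were higher and the median was 0.35. The adjusted p of the members called ran from 0.0026 to 0.048.

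The number of calls rested on having both controls. Without control 1, only 1 member was called lower and without control 2 only 3, while the medians stayed at −0.61 and −0.75; in those fits 5.83% and 6.19% of all genes were called lower. Without VpR83, 30 of 82 fitted members were called lower, beside 15.5% of all genes.

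**Figure D2:**
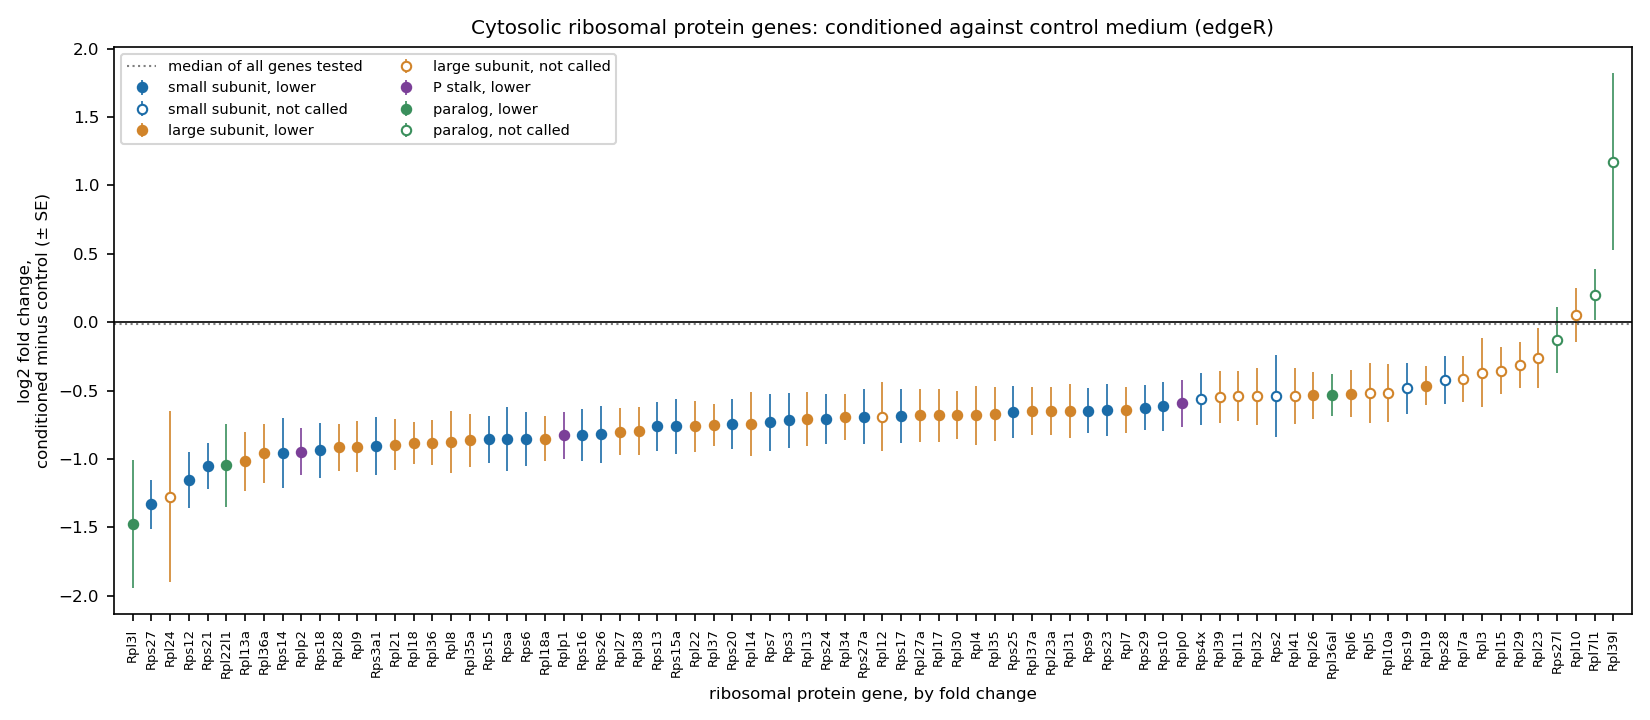
Log2 fold change (conditioned minus control, vertical axis, bars ± SE) of 80 of the 83 tested ribosomal protein genes, ordered from lowest to highest and coloured by subunit; filled points passed the adjusted p below 0.05 and open points did not. All filled points lie below 0, between −1.47 (Rpl3l) and −0.46 (Rpl19), and the dotted line marks the median of all genes tested.

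The canonical genes moved by similar amounts. Among the 77, the fold change of 62 lay within 0.25 of their median on the log2 scale. The SD of their fold changes was 0.22, against 1.91 over all genes, which take in genes with far fewer counts. Other lists spread little as well, with an SD of 0.34 over mitochondrial ribosomal proteins and 0.45 over translation initiation factors. Apart from Rpl24, the mean level of a canonical gene ran from 145 (Rpl35) to 1984 CPM (Rplp0) in control and from 90.8 to 1314 CPM in conditioned medium. CPM is the usual count per library scaled to a common total, here after TMM. The level left was 39.8% of control for Rps27, 103.69% for Rpl10 and 61.9% in the median gene. Per kilobase of the principal transcript, control levels spanned 153 (Rpl35) to 2431 CPM (Rplp1) over 71 genes. This scaling adjusts for length but not for sequence shared with other genes. Of the 50-base words of Rpl35 and Rplp1, 15.95% and 40% were found in no other gene. The part of such sharing in the span was not tested.

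In the small subunit, which binds the messenger and decodes it, 26 of 31 genes were called lower, with a median log2 fold change of −0.73. Rps27, a protein that carries a zinc finger, had the lowest fold change of the canonical genes. Its gene lies on chromosome 3 from 90212522 to 90213651 (GRCm38). Rps27 stood at 617 and 566 CPM in the controls and at 198, 216, 244 and 283 CPM with VpR83, VpR99, VpR126 and VpR2020. Even the highest conditioned library, VpR2020, lay far below the lower control. The log2 fold change was −1.33 ± 0.18 (SE), adjusted p = 0.0026, and Rps27 was the only named member called under each of the 14 other settings that were tried on it.

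Rps12 and Rps21 came next. Rps12 (chromosome 10, 23785183 to 23787275), a protein on the beak of the small subunit's head, was at 1415 and 1261 CPM in the controls. With VpR83, VpR99, VpR126 and VpR2020 it was at 606, 661, 462 and 679 CPM, a log2 fold change of −1.15 ± 0.20 (SE), adjusted p = 0.00614. In each conditioned library Rps12 lay below the lower control by a wide margin, and VpR126 was lowest. Rps21 (chromosome 2, 180257377 to 180258445) was at 409 and 366 CPM in the controls and 181, 185, 160 and 222 CPM in the conditioned libraries in the same order. Its log2 fold change was −1.05 ± 0.17 (SE), adjusted p = 0.0045, and its groups did not overlap either.

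Rps14, whose loss is known from a human myelodysplastic anaemia, differed more between lines than most. It was at 819 and 723 CPM in the controls and at 306, 331, 408 and 546 CPM with VpR83, VpR99, VpR126 and VpR2020. All were below the controls, with VpR2020 well above the other lines. The log2 fold change of Rps14 was −0.95 ± 0.26 (SE), adjusted p = 0.0251. Rpsa, which sits at the back of the small subunit and also serves as a laminin receptor, fell from 2005 and 1890 CPM to 1071, 1297, 777 and 1164 CPM, with a log2 fold change of −0.85 ± 0.23 (SE) and adjusted p = 0.0267. Rps6, the ribosomal protein that S6 kinases phosphorylate, fell from 693 and 650 CPM to 367, 420, 282 and 416 CPM, with a log2 fold change of −0.85 ± 0.20 (SE) and adjusted p = 0.0156. For both genes VpR126 was the lowest library and the groups were apart.

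Smaller falls that still passed were found in Rps29 (−0.62 ± 0.17 SE, adjusted p = 0.0246) and Rps10 (−0.61 ± 0.18 SE, adjusted p = 0.0329), both on the log2 scale. The 5 small subunit genes not called included Rps2, Rps4x, Rps19 and Rps28. Rps19, the gene most often mutated in Diamond-Blackfan anaemia, was at 740 and 647 CPM in the controls and at 493, 493, 413 and 588 CPM in the conditioned libraries. Its groups did not overlap, but the log2 fold change of −0.48 ± 0.19 (SE) had an adjusted p of 0.0772, and an interval of 2 SE on either side ran from −0.85 to −0.11.

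In the large subunit, which forms the peptide bond, 32 of 46 genes were called lower, with a median log2 fold change of −0.68. Rpl13a (chromosome 7, 45125558 to 45128761), known for a second role in silencing inflammatory messengers in monocytes, led the canonical genes of this subunit apart from Rpl24. Of its exon bases, 35.4% are covered on the same strand by Gm45713, so its count may be less certain. Rpl13a was at 1335 and 1221 CPM in the controls and at 542, 640, 536 and 811 CPM with VpR83, VpR99, VpR126 and VpR2020. VpR2020 stood above the other conditioned libraries and still well below both controls. Its log2 fold change was −1.02 ± 0.22 (SE), adjusted p = 0.0115. Rpl36a, on the X chromosome, went from 352 and 291 CPM to 169, 175, 120 and 197 CPM, a log2 fold change of −0.96 ± 0.22 (SE), adjusted p = 0.014. At the other end of the genes called, Rpl26, Rpl6 and Rpl19 had log2 fold changes of −0.53, −0.52 and −0.46, with adjusted p from 0.04 to 0.048.

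The 14 large subunit genes not called were Rpl3, Rpl5, Rpl7a, Rpl10, Rpl10a, Rpl11, Rpl12, Rpl15, Rpl23, Rpl24, Rpl29, Rpl32, Rpl39 and Rpl41. Most of these still had all conditioned libraries below both controls. Rpl10, a late-joining protein near the peptidyl transferase centre, was an exception. It was at 991 and 934 CPM in the controls and at 976, 866, 920 and 1230 CPM in the conditioned libraries, so its groups overlapped. Its log2 fold change was 0.05 ± 0.20 (SE), adjusted p = 0.847, with 2 SE reaching from −0.35 to 0.45. Of the 50-base words of its transcripts 66.5% were found in no other gene, so its count is less certain than that of a gene without copies. The same limit holds for many members. The median of the canonical genes other than Rpl24 was 75.8%, and Rps6 (56.2%) and Rplp1 (40%), both called lower, had smaller shares than Rpl10. Rpl23 overlapped as well, with 916 and 819 CPM in the controls and 685, 665, 604 and 935 CPM in the conditioned libraries.

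The P stalk, which recruits the elongation factors, is built by Rplp0, Rplp1 and Rplp2, and each of them was called lower. Rplp2 was at 862 and 884 CPM in the controls and 457, 469, 376 and 512 CPM in the conditioned libraries, a log2 fold change of −0.95 ± 0.17 (SE), adjusted p = 0.00673. Rplp1 went from 1297 and 1129 CPM to 670, 683, 607 and 778 CPM, a log2 fold change of −0.83 ± 0.17 (SE), adjusted p = 0.0107. Rplp0, the base of the stalk and a common reference gene in quantitative PCR, went from 2023 and 1944 CPM to 1264, 1390, 1168 and 1436 CPM, a log2 fold change of −0.59 ± 0.17 (SE), adjusted p = 0.0334. In each of the stalk genes VpR126 was lowest and VpR2020 highest among the lines.

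Rpl5 and Rpl11 form the particle that, when not built into ribosomes, binds Mdm2 and holds it away from p53. Rpl11 was at 658 and 573 CPM in the controls and 405, 444, 351 and 490 CPM in the conditioned libraries, and Rpl5 at 839 and 766 CPM against 538, 547, 441 and 716 CPM. Both had groups that did not overlap and both missed the threshold. The log2 fold change was −0.54 ± 0.18 (SE) for Rpl11, adjusted p = 0.0516, and −0.52 ± 0.22 (SE) for Rpl5, adjusted p = 0.0967. Rpl11 passed in 6 of the other 14 settings and Rpl5 in 3.

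The paralogs did not share 1 pattern: 3 of 6 tested were lower and 3 were not called, and none was called without control 1 or control 2. Rps27l, a p53 target that differs from Rps27 by few residues, was at 75.7 and 71.9 CPM in the controls and at 70.1, 83.9, 45.2 and 70.9 CPM with VpR83, VpR99, VpR126 and VpR2020. The groups overlapped, and its log2 fold change was −0.13 ± 0.24 (SE), adjusted p = 0.689, with 2 SE from −0.61 to 0.36. Set against its parent in the same library, Rps27l amounted to 12.3% and 12.7% of Rps27 in the controls and to 35.4%, 38.9%, 18.5% and 25.05% in the conditioned libraries. The ratio was higher in 4 of 4 conditioned libraries than in both controls, by 1.18 on the log2 scale. The exact two-sided permutation p was 0.13333, the smallest possible, or 0.23333 after adjustment over the 7 pairs of paralog and parent compared. Rps27l itself was not called, while Rps27 was called lower.

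Rpl7l1, which takes part in large subunit assembly, was at 83.0 and 100.1 CPM in the controls and at 103, 129, 90.02 and 98.5 CPM in the conditioned libraries. Its groups overlapped and its log2 fold change was 0.20 ± 0.19 (SE), adjusted p = 0.411. Its parent Rpl7 was called lower at −0.64 ± 0.17 (SE), adjusted p = 0.0231, and the ratio of the pair was 0.84 higher on the log2 scale, without overlap. Rpl36al, an intronless copy of Rpl36a, was lower at 125 and 119 CPM against 93.6, 89.7, 69.4 and 83.9 CPM, a log2 fold change of −0.53 ± 0.16 (SE), adjusted p = 0.0327. Against Rpl36a it amounted to 35.4% and 41.0% in the controls and 42.5% to 57.8% in the conditioned libraries, a log2 difference of 0.43 without overlap. The exact p of both ratios was again 0.13333, and 0.23333 adjusted.

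Rpl22l1, the paralog of Rpl22, went with its parent. It was at 64.6 and 53.8 CPM in the controls and 34.96, 29.0, 16.5 and 34.2 CPM in the conditioned libraries, a log2 fold change of −1.05 ± 0.30 (SE), adjusted p = 0.0324. Its share of Rpl22 overlapped between the groups, with a log2 difference of −0.31, an exact p of 0.4 and 0.4 adjusted.

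Rpl3l, known as a muscle form of Rpl3, was scarce, at 2.73 and 1.55 CPM in the controls and 0.439, 1.16, 0.760 and 0.664 CPM in the conditioned libraries. Its log2 fold change of −1.47 ± 0.47 (SE) passed with an adjusted p of 0.0436, and was lost in 8 of 14 other settings. Rpl39l, known from the testis, was near the limit of detection, at 0.300 and 0.0470 CPM against 0.512, 0.365, 0.422 and 0.387 CPM. Its log2 fold change of 1.17 ± 0.65 (SE) did not pass, adjusted p = 0.184. Rpl10l, a retrogene copy of Rpl10 used in male germ cells, failed the filter with 1 count in control 2, 1 in VpR99 and none in the other libraries, which allows up to 3 counts in each of those.

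Rpl24, a large subunit protein that bridges to the small one, was hardly counted. It had 47 and 14 counts in the controls and 4, 55, 16 and 11 in the conditioned libraries, against 1624 or more for the other canonical genes. Of its exon bases, 47.0% are covered on the same strand by Gm28037, a transcript that has 0 counts in all 6 libraries. Its log2 fold change of −1.27 ± 0.63 (SE), adjusted p = 0.142, rests on these few reads.

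**Figure D3:**
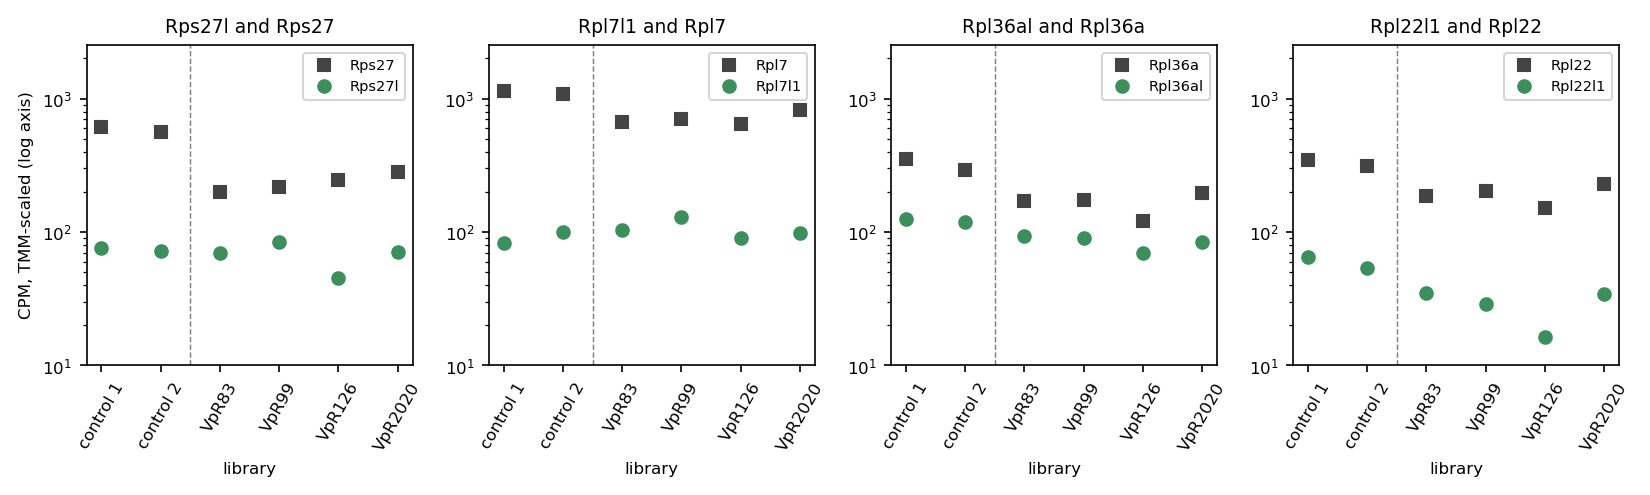
CPM (log axis) of 4 paralogs (circles) and their parents (squares) in the 2 controls, left of the dashed line, and the 4 conditioned libraries. Rps27l and Rpl7l1 overlap between the groups while Rps27 and Rpl7 do not.

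The distance from the controls differed between the lines. Measured in each library against the mean of both controls, the median log2 difference over the 83 members was −0.74 with VpR83, −0.65 with VpR99, −0.996 with VpR126 and −0.47 with VpR2020, while that of all genes lay between −0.06 and −0.01. Below both controls were 80 members with VpR83, 80 with VpR99, 80 with VpR126 and 79 with VpR2020, where 47.6%, 45.7%, 47.2% and 47.9% of all genes were. VpR126 was the lowest of the 6 libraries for 70 of 83 members, which it was for 20.6% of all genes, and VpR2020 was the highest conditioned library for 68. VpR83 was lowest for 7 members and 16.2% of all genes, VpR99 for 4 members and 10.5%, and VpR2020 for 0 members and 12.9%. These values share the same controls and come from 1 library a line, so the order of the lines has no test.

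For the remaining members another library than VpR126 was the lowest. VpR83 was lowest for Rps27, Rps14, Rps9, Rpl3l, Rpl9, Rpl19 and Rpl24, and VpR99 for 4 members, Rps29, Rpl10 and Rpl37a among them. A control was lowest for Rpl7l1 and Rpl39l. Once each library's median was removed, the members that varied most over the lines were Rpl24, Rpl3l, Rps14 and Rpl22l1. The balance of the subunits differed less between the lines than from the controls. Small subunit genes made up 45.6% and 45.7% of canonical counts in the controls and 43.4%, 44.2%, 43.4% and 43.6% in the conditioned libraries. These groups did not overlap. Of the control share of all counts, 50.2% was left for the small subunit and 54.3% for the large.

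**Figure D4:**
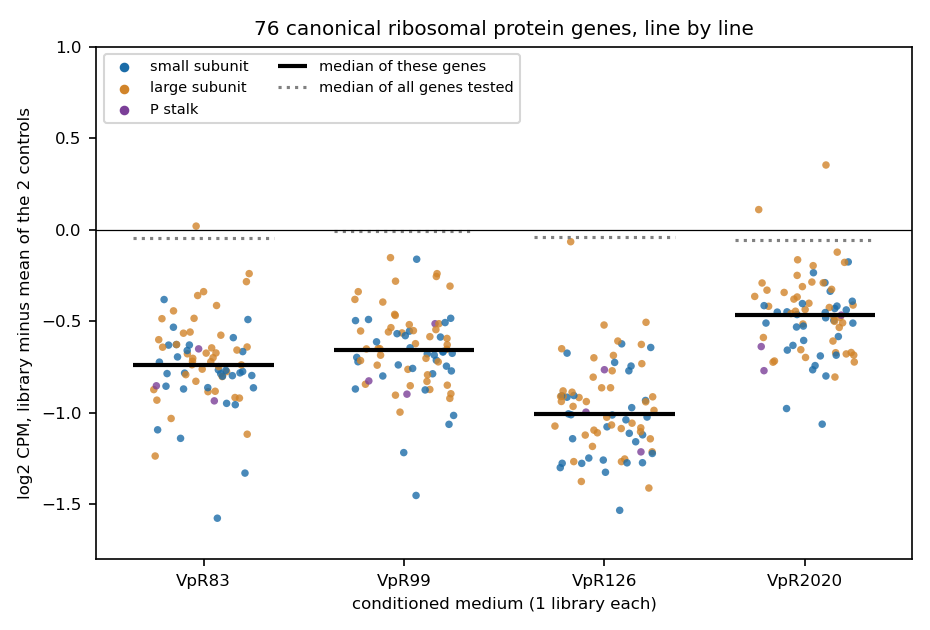
Log2 CPM of each conditioned library minus the mean of the 2 controls (vertical axis) for 76 canonical genes, Rpl24 left out, with 1 point a gene, bars at the median of these genes and dotted lines at the median of all genes tested. The cloud lies lowest with VpR126 and highest with VpR2020.

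Other genes of the pathway were compared by lists whose members were picked with earlier results of these data known. Of the ribosomal proteins outside the rule, Fau, which encodes a fusion of a ubiquitin-like protein with a small subunit protein, fell from 762 and 678 CPM to between 440 and 516 CPM, with a log2 fold change of −0.64 ± 0.15 (SE), adjusted p = 0.0172. Rack1, the scaffold on the small subunit's head, was at −0.40 ± 0.19 (SE), adjusted p = 0.128. Of 20 other TOP messengers tested, 5 were lower (25%, near the 19.7% of all genes) and none was higher, with a median of −0.53. With DESeq2 9 were lower, and without control 1 or control 2, 3 were. The members of that list did not move alike. The translation elongation subunits Eef1b2 and Eef1d were lower at −0.76 and −0.80, and the snoRNA host genes Gas5, Snhg5 and Snhg8 at −1.75, −2.11 and −2.09, adjusted p from 0.000514 to 0.023. Eef1a1, which brings aminoacyl-tRNA to the ribosome, was at 5879 and 5379 CPM in the controls and 7138, 5946, 5859 and 8654 CPM in the conditioned libraries, and was not called, adjusted p = 0.378. Summed over the list, the controls held 16815 and 15584 CPM, of which Eef1a1 was a large part, and VpR83 and VpR2020 lay above both. By gene, 13 of 20 had all conditioned libraries below both controls (65%, beside 33.3% of all genes).

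Mitochondrial ribosomal proteins, which build the separate ribosome of that organelle, were lower in 22 (28.6%, beside 19.7% of all genes) and higher in 1 of 77 tested, with a median of −0.39. Mrpl33 had the largest change among them, −1.43 ± 0.20 (SE), adjusted p = 0.00283. Of 39 ribosome biogenesis genes, 5 were lower (12.8%, a smaller share than the 19.7% of all genes) and 1 higher, with a median of −0.41. Fibrillarin (Fbl), which methylates ribosomal RNA, was at 131 and 139 CPM in the controls and 66.8, 79.0, 41.4 and 43.2 CPM in the conditioned libraries, a log2 fold change of −1.23 ± 0.28 (SE), adjusted p = 0.0155. Gar1 and Nop10 of the pseudouridylation complex were at −1.55 and −1.24, and the assembly factor Heatr1 was higher at 1.15. All 3 passed, with adjusted p from 0.00352 to 0.0221. Without control 1 or control 2, the lists of mitochondrial ribosomal proteins and of biogenesis genes each had 1 gene called lower. Without VpR99, 16 biogenesis genes were called lower, and without VpR83 or VpR2020, 7 or 8 of the mitochondrial ones were.

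Of 17 genes of mTORC1 and TOP control, 10 were higher (58.8%, beside 22.5% of all genes) and 3 lower (17.6%, beside 19.7%), with a median of 0.65. Higher genes included Rragc, a GTPase that tethers mTORC1 to lysosomes (2.13 ± 0.25 SE, adjusted p = 0.00162), and Larp1, which binds the TOP sequence (0.90 ± 0.25 SE, adjusted p = 0.0281), both on the log2 scale. Mlst8, a core subunit of the mTOR complexes, was lower at −1.29 ± 0.18 (SE), adjusted p = 0.0027. The higher genes of the list numbered 4 without control 1, 3 without control 2 and 5 with library totals. Of 8 transcription factors of ribosomal protein genes, 3 were higher (Gabpa, Sp1 and Zbtb7a, 37.5% beside 22.5% of all genes) and none was lower. With library totals or upper-quartile scaling 0 were higher and 2 lower, and without control 1 or control 2 none was higher. Myc, the best known activator of ribosome synthesis, was at 58.1 and 78.2 CPM in the controls and 53.4, 86.0, 19.2 and 21.9 CPM in the conditioned libraries. It was lowest in the VpR126 and VpR2020 libraries. Among the conditioned libraries, these had the lowest and the highest summed level of the ribosomal protein genes. A link between Myc and those genes was not tested. Of 18 initiation factors, 3 were lower (16.7%, beside 19.7% of all genes) and 1 higher (5.56%, beside 22.5%), neither share above that of all genes.

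Of 10 p53 targets, 7 were higher (70%, beside 22.5% of all genes) and none lower, with a median of 1.495. Upper-quartile scaling or library totals left 5 higher. The list did not hold Rps27l, which was not called. Cdkn1a, which halts the cell cycle, was at 44.7 and 12.5 CPM in the controls and at 152, 261, 357 and 218 CPM in the conditioned libraries, a log2 fold change of 3.11 ± 0.63 (SE), adjusted p = 0.01. Of 14 cell cycle genes, 1 was lower (7.14%, beside 19.7% of all genes) and none higher, although the median was −1.06. That count was 8 without VpR99, 5 with DESeq2 and 0 without control 1 or control 2. Their summed level was 4407 and 3980 CPM in the controls, 2806 and 3368 CPM with VpR83 and VpR99, and 1080 and 1375 CPM with VpR126 and VpR2020. The summed level of the ribosomal protein genes was 36406 and 38502 CPM with VpR83 and VpR99 and 30587 and 43346 CPM with VpR126 and VpR2020. Each line had 1 library, and a link between the cell cycle and ribosomal protein genes was not tested.

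**Figure D5:**
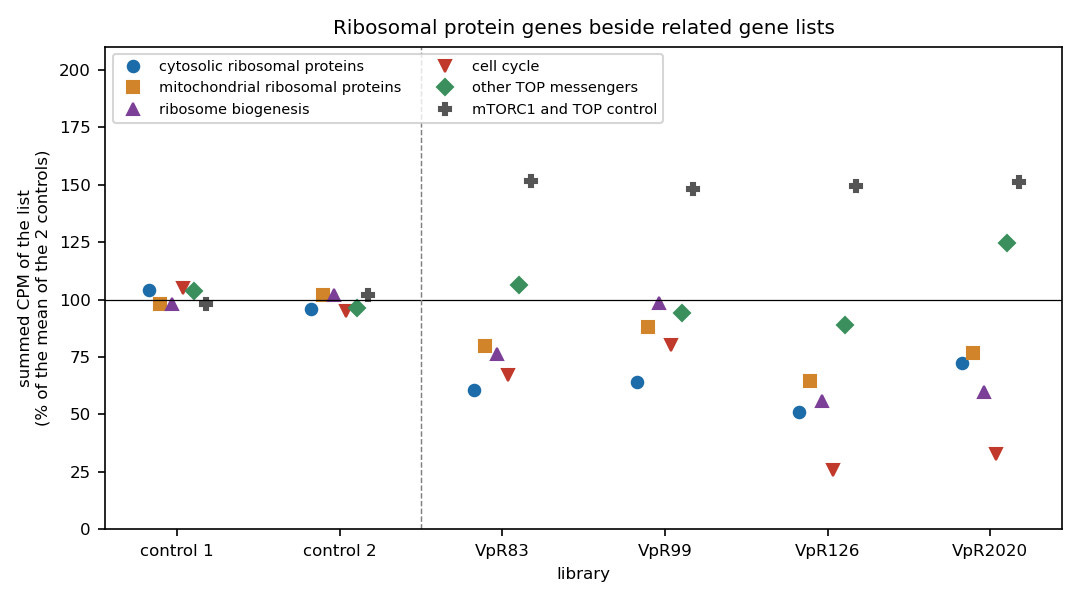
Summed CPM of 6 gene lists in each library, as a percentage of the mean of the 2 controls (vertical axis), with controls left of the dashed line. The ribosomal protein genes lie at 60.7%, 64.1%, 51.0% and 72.2% of control with VpR83, VpR99, VpR126 and VpR2020, and cell cycle genes at 66.9%, 80.3%, 25.8% and 32.8%.

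Markers of marrow cell types differed between the groups as well, where 22.5% of all genes were higher and 19.7% lower. All 10 macrophage markers were higher, with a summed level of 635 to 688 CPM in the controls and 6007 to 15737 CPM in the conditioned libraries. Erythroid markers were lower in 9 of 10, from 1423 to 2048 CPM in the controls to 75.1 to 383 CPM, and Car1, Rhag and Slc4a1 were at 0 in all conditioned libraries. Markers of neutrophil precursors were lower in 6 of 10, at 37474 to 39919 CPM against 1345 to 6580 CPM, and those of stem and progenitor cells in 6 of 9 tested, at 416 to 444 CPM against 46.4 to 115 CPM. B cell markers were lower in 7 of 10, at 1183 to 1374 CPM against 145 to 464 CPM, and T and NK cell markers in all 10, at 88.8 to 94.8 CPM against 1.98 to 8.49 CPM. Late neutrophil markers were lower in 6 of 10, at 50930 to 56696 CPM against 2735 to 13185 CPM. Epithelial markers were lower in 3 of 5 tested, at 3873 to 4276 CPM against 197 to 1049 CPM, nearly all of it Lcn2, which neutrophils also express. The other 5 had too few counts: Krt8, Krt19 and Pax2 were at 0 in all conditioned libraries, and in the controls Krt8 had 2 and 5 counts, Pax2 1 and 0, and Krt19 none. Markers of fibroblasts and endothelium were lower in 6 and higher in 1 of 9 tested, at 117 to 133 CPM against 21.2 to 66.5 CPM. The part of these cell types in the lower level of the ribosomal protein genes was not tested. The line with the lowest ribosomal protein level, VpR126, had the highest summed macrophage markers and also the highest summed erythroid markers among the conditioned libraries. By the median erythroid marker the lines hardly differed, at −9.68, −9.65, −9.63 and −9.79 on the log2 scale with VpR83, VpR99, VpR126 and VpR2020. Below both controls were 9 of the 10 erythroid markers with VpR126 and all 10 with each other line.

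Copies of these genes are spread over the mouse genome, and reads that match several copies may be dropped or divided. Of the 50-base words in a canonical gene's transcripts, 15.95% (Rpl35) to 100% were found in no other annotated transcript. Among the 16 tested members with at least 90% of words unique, 12 were called lower, where 19.7% of all genes were, and the median log2 fold change was −0.73. These members include the scarce paralogs Rpl3l and Rpl39l. Of the named pseudogenes, 107 of 266 had enough counts, 6 were lower (5.61%, a smaller share than in all genes) and none higher, with a median of −0.62. That count was 0 without control 1, 2 without control 2 or VpR99, 3 without VpR83 or VpR2020, 12 with DESeq2, 19 with upper-quartile scaling and 24 with library totals. Across 76 canonical genes, fold change had a Spearman rho of −0.20 with the unique share and −0.05 with the control level, and across the 71 with a principal transcript it had one of 0.20 with transcript length. These are descriptions over genes that share their libraries. Levels per kilobase of the principal transcript of those 71 genes had a similar order in both groups, with rho = 0.94.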

How the data were processed

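Total RNA was made into libraries with a stranded TruSeq kit, per the labels' protocols. Reads were processed with Trimmomatic 0.38 and STAR 2.5.2b on GRCm38, per the submitters' processing notes. The counting tool with its strand setting and annotation is not given in these sources. The table the authors deposited holds raw counts per Ensembl gene. Of 45706 rows, 45143 matched GENCODE M21. Libraries with TMM scaling and edgeR's default expression filter were fitted with edgeR 4.0.16 robust quasi-likelihood (R 4.3.3), 4 conditioned against 2 control, with adjustment over 15141 genes and SE computed as the log2 fold change over the square root of F. The code was tested on simulated data. Members and lists were chosen with earlier results of these data known. Named genes were the 8 highest and 8 lowest fold changes among members called, the paralogs, Rplp0, Rplp1, Rplp2, Rpl5, Rpl11, Rps6, Rps19, Rpsa, the 4 members most variable over lines and members failing the filter; other lists gave at most 4 genes. Genes named beyond that rule (Rpl10, Rpl23, Eef1b2, Eef1a1, Rack1, Larp1 and Myc among them) were picked after their values were seen. No 2 libraries agreed within sampling noise (chi-square per degree of freedom at least 29.8). A few genes are counted in the sets but not reported here by name. DESeq2 1.42.0, limma voom 3.58.1, other scalings, no filter, thinned VpR99 counts, added pseudogenes and left-out libraries were alternatives.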

Additional observations from a re-analysis of the deposited data

How the results depend on the processing

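The count of members called lower, with the share of all genes called lower in the same fit, was 61 (19.7%) as reported, 62 (20.4%) with RLE scaling, 75 (27.1%) with upper-quartile scaling, 75 (27.5%) with library totals, 50 (9.59%) without the low-count filter, 70 (22.9%) with DESeq2, 63 (21.4%) with voom and 62 (19.9%) with VpR99 thinned. It ranged from 1 (without control 1) to 59 (without VpR126) when 1 library was left out. No member was called higher under any of these settings. Restricting the set to members with 90% unique words, an alternative added after seeing the data, gave 12 lower of 16, beside 19.7% of all genes. The median log2 fold change moved to −0.93 with library totals, where the median of all genes was −0.26, and over left-out libraries it ranged from −0.77 to −0.60. Upper-quartile scaling moved the median of all genes to −0.22. Relative to all genes the members' median was −0.68 as reported, −0.68 with upper-quartile scaling and −0.67 with library totals. Scaling moves all genes by nearly the same amount, so this likeness was given in advance and is no check. Over left-out libraries the relative median ran from −0.75 (without control 2) to −0.57 (without VpR126). The change of sign of Rpl7l1 to −0.011 with upper-quartile scaling and −0.043 with library totals, and of Rps27l to 0.035 without VpR126 (−0.25 to 0.035 over left-out libraries, −0.37 with library totals), concerned fold changes that passed in no fit. The log2 ratio of Rps4l, a transcribed pseudogene, to Rps4x differed by −0.39, and by −0.74 to −0.045 when 1 library was left out. Mitochondrial ribosomal proteins were lower in 41 genes with upper-quartile scaling, 42 with library totals and 7 without the filter, beside 22. No paired analysis was possible because the conditioned samples carry no replicate number in the labels. The cause of these differences was not tested, beyond the fewer libraries in each leave-one-out fit.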
